A study of Mus musculus with 8 samples.

Results

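The genes described here encode the machinery that brings proteins into mitochondria. They were chosen by a rule on names: every gene in the deposited table whose symbol begins with Timm, Tomm or Chchd, plus Samm50, Pmpca, Pmpcb, Mtx1, Mtx2, Pam16 and Grpel1. Of the 9307 genes in the table, 33 met this rule. The mouse annotation holds 41 protein-coding genes that meet it. The other 8 (Chchd10, Chchd2, Pam16, Timm10b, Timm23, Timm8a1, Timm8a2 and Tomm20l) were not analysed here, and each listed gene has at least 1 read in every library.

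The cells were wild-type mouse embryonic fibroblasts, connective tissue cells from mouse embryos, which in every group carry SV40 T antigen, a viral oncoprotein used to immortalise cells. One line carried an empty vector (EV). The other carried pBabe vectors for wild-type METTL1 and for WDR4 (OE), which together form an enzyme that methylates guanosine in a subset of tRNAs. Both lines were selected as stable transductants with puromycin and G418, which were left out during expansion, and were treated with cycloheximide before lysis to hold ribosomes in place. Each line gave 2 input libraries, which measure mRNA, and 2 libraries of ribosome-protected fragments (RPF, or footprints), the pieces of mRNA left undigested inside a ribosome. Stable clones are named in the labels, with no word on whether libraries of a group are separate cultures. All p-values thus cover only the variation among these libraries, possibly technical, and a difference between clones cannot be told apart from an effect of METTL1 and WDR4.

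Nearly all mitochondrial proteins are made in the cytosol and must be threaded through the mitochondrial membranes. The translocase of the outer membrane (TOM) is the entry gate. From there the TIM23 complex takes proteins with a cleavable leader to the matrix, the TIM22 complex and its small TIM chaperones take carrier proteins to the inner membrane, the sorting and assembly machinery (SAM) folds barrel proteins into the outer membrane, and an oxidoreductase pathway folds cysteine-rich proteins in the intermembrane space. In dividing fibroblasts these complexes are housekeeping components.

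Totals of reads in the listed genes were 294367 to 371520 in the input libraries and 526699 to 864147 in the RPF libraries. The import genes took 780 to 950 input reads and 1853 to 2859 RPF reads of a library, with a median per import gene of 15 to 19 input reads and 44 to 67 RPF reads. Fibroblast markers were present for 10 of 11 genes, with summed values of 4885 to 10567 (Thy1 was not in the table). Endothelial and muscle markers gave 0 of 4 genes each, and leukocyte and epithelial markers 1 of 5 (Csf1r) and 1 of 6 (Krt18). Adipocyte markers gave 1 of 3 (Fabp4), and neural markers 2 of 5 (Map2 and Tubb3, summed values 16.6 to 47.6). Mettl1, one of the targeted genes, had input values of 16.7 and 14.01 for EV and 33.7 and 16.0 for OE, and RPF values of 25.7 and 25.6 for EV and 40.1 and 22.4 for OE. Wdr4 had input values of 16.7 and 26.7 for EV and 24.1 and 42.6 for OE, and RPF values of 15.2 and 15.1 for EV and 25.8 and 24.2 for OE. Neither passed the test for mRNA (limma adjusted p = 0.482 and 0.454), and the labels do not give the species of the vector sequences. Values here are the authors' normalised reads, that is reads divided by a size factor per library, so that 1 read is worth 1.27 to 1.61 for input and 0.549 to 0.898 for RPF.

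The first comparison, OE input against EV input, asks which import mRNAs differed between the lines. Timm10, a small TIM chaperone, and Tomm70a, the TOM receptor for carrier precursors, rose in OE. These 2 of 33 genes (6.06%) passed an adjusted p of 0.05 in limma, against 1.5% of all genes tested. In bulk libraries such as these, a change in the share of cells that hold an mRNA and a change in its amount per cell cannot be told apart. With 4 other tools run on the reads (edgeR with TMM or RLE scaling, DESeq2 and limma voom) 0 of the 33 passed, with 3, 3, 2 and 3 at an unadjusted p under 0.05. Over all 9307 genes these tools called 57, 60, 15 and 49 in mRNA. For their unadjusted counts, here and below, no share over all genes is given. At an unadjusted p under 0.05 in the main limma fit there were 7 import genes (21.2%), against 13.4% of all genes. Of these, 5 were higher in OE (Timm10, Tomm70a, Timm13, Timm17a and Tomm40) and 2 lower (Mtx1 and Timm21).

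The median mRNA change of the 33 genes was a log2 fold change of 0.14, against -0.00 over all genes, and 21 of 33 lay above 0, against 49.7% of all genes. The median rests on 1 library: it was 0.0066 without the second OE input library and 0.19 without the first. The OE and EV input libraries did not overlap for 14 import genes (42.4%), against 40.6% of all genes, so that the share lay close to the background. Of the 33 import genes, OE was wholly above EV in 9, against 21.2% of all genes. It was wholly below in 5 of the 33 (Chchd1, Chchd4, Chchd5, Chchd6 and Mtx1), against 19.4% of all genes. The import genes together took 0.236% ± 0.00578 of EV input reads and 0.265% ± 0.000639 of OE input reads (SD, n = 2 each). An exact two-sided permutation test gave p = 0.333, the smallest that 2 against 2 libraries allow. Without Tomm70a the shares were 0.205% and 0.22%.

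**Figure D1:**
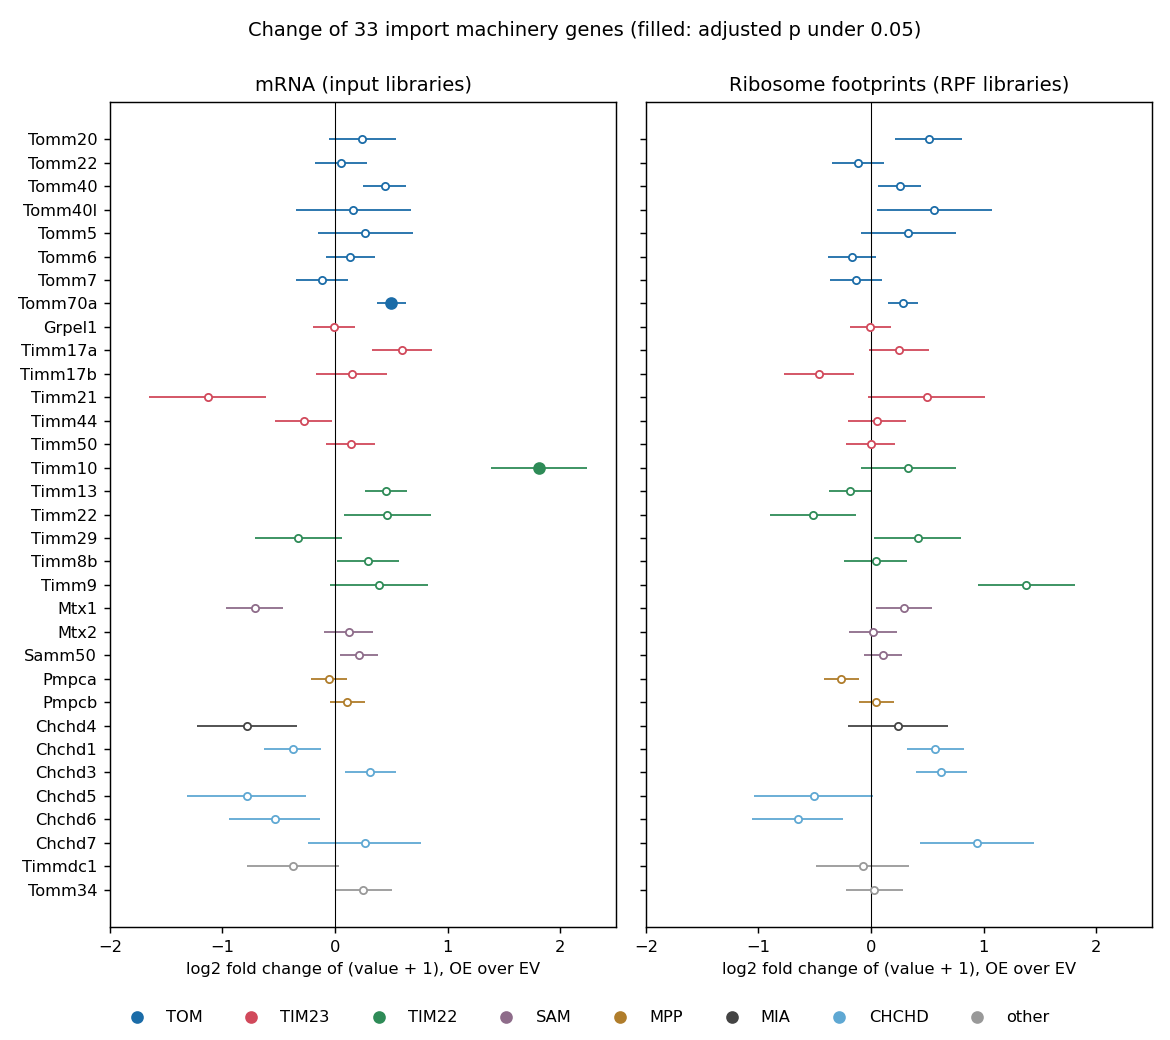
Log2 fold change of (value + 1) in OE over EV for each of the 33 import genes, in input libraries (left) and RPF libraries (right). Points are limma estimates from 2 libraries a group, bars are their standard errors, colours are the roles named in the key (MIA is the intermembrane space oxidoreductase Chchd4, MPP the matrix processing peptidase), and filled points have an adjusted p under 0.05. The filled points are Tomm70a and Timm10, both on the mRNA side.

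The TOM genes are the pore Tomm40 and its paralog Tomm40l, the receptors Tomm20, Tomm22 and Tomm70a, and the small subunits Tomm5, Tomm6 and Tomm7. For mRNA, 7 of these 8 had a fold change above 0 and 1 (Tomm70a) passed the test, with a median log2 fold change of 0.20. Tomm70a (chromosome 16, 57121703 to 57156705, plus strand, build mm10, also called GRCm38) had the highest mean over all 8 libraries of the import genes. In EV footprints the mean of Pmpca was higher (131.3 against 127.8), though the libraries of both genes overlapped. Tomm70a input values were 150.2 and 150.3 for EV and 223 and 204 for OE. Both OE libraries stood above both EV libraries, and the EV pair differed by less than 1 read is worth. The log2 fold change was 0.50 (SE 0.13, limma adjusted p = 0.0455). From 235 EV and 292 OE reads the ratio of OE to EV was 1.41, with an exact 95% interval of 1.19 to 1.69 that covers counting error only.

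Tomm70a footprints were 129.9 and 126 for EV and 149 and 163 for OE. Again the groups did not overlap, with a log2 fold change of 0.28 (SE 0.13) that did not pass the test (limma adjusted p = 0.438). The mRNA call is close to the threshold: it was lost with only the 4 input libraries in the fit (adjusted p = 0.100), without any 1 of the 4 input or 2 EV RPF libraries (0.0575 to 0.215), and by edgeR with TMM (0.103) and DESeq2 (0.645). Tomm40 showed the same order in both kinds of library, with input values of 55.2 and 49.7 for EV and 83.5 and 61.2 for OE. Its mRNA log2 fold change of 0.44 did not pass (limma adjusted p = 0.293).

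The TIM22 branch comprises the channel Timm22, its partner Timm29 and the small TIM chaperones Timm8b, Timm9, Timm10 and Timm13. The small TIMs are the chaperones of the intermembrane space, and each carries 2 pairs of cysteines, with 3 residues within a pair, that form disulfide bonds. The coding stretches below run from the first to the last of these cysteines, 5′ to 3′, with the cysteine codons in capitals, and are shown because 2 of these genes (Timm9 and Timm10) gave the largest rises in mRNA and footprints between the lines, among the import genes.
Timm8b: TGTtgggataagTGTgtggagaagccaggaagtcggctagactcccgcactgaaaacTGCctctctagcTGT
Timm9: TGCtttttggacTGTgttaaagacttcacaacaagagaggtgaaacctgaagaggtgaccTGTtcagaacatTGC
Timm10: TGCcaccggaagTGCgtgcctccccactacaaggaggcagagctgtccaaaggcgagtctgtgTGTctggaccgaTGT
Timm13: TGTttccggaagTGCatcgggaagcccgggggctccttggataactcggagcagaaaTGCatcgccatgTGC
The spacing between the inner cysteines is 14 residues in Timm8b and Timm13, 15 in Timm9 and 16 in Timm10. The coding sequences of all 4 are unique in the annotation: each of their 28-base subsequences, about a footprint long, occurs in no other gene (100%).

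Timm10 (chromosome 2, 84826997 to 84830213, plus strand) binds precursors together with Timm9 in a joint ring. Its input values were 6.42 and 1.27 for EV and 11.2 and 16.0 for OE. Both EV libraries were low and OE lay above them, but these values stand for 5, 1, 7 and 12 reads. The log2 fold change was 1.81 (SE 0.42, limma adjusted p = 0.0264), and the ratio of OE to EV from 6 and 19 reads was 3.61, with an exact 95% counting interval of 1.38 to 11.03. Without the second EV input library the log2 fold change was 0.96 (limma adjusted p = 0.305), and without the first it was 2.66 (limma adjusted p = 0.00169). The call was also lost without either OE input library (0.0591 and 0.132) or either EV RPF library (0.0631 and 0.0626), with only the 4 input libraries (0.197), and by edgeR with TMM (0.218) and DESeq2 (0.742).

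Footprints on Timm10 rested on more reads, 81 in EV and 105 in OE. They were 28.4 and 28.6 for EV and 34.6 and 37.7 for OE. The OE pair stood above the EV pair by a log2 fold change of 0.33 (SE 0.42), which did not pass the test (limma adjusted p = 0.859). This SE equals that for mRNA, since the fit estimates the spread of a gene from all 8 libraries together. It therefore does not show the precision of the footprints alone. With only the 4 RPF libraries in the fit the limma adjusted p was 0.536.

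Timm9 (chromosome 12, 71123173 to 71136684, minus strand), the partner of Timm10 in that ring, was the import gene with the largest fold change and the smallest p in footprints. Its RPF values were 7.25 and 7.53 for EV and 24.1 and 18.0 for OE. The EV pair was low and tight, and both OE libraries lay at more than double its level. The log2 fold change was 1.38 (SE 0.43, limma adjusted p = 0.158). From 21 EV and 64 OE reads the ratio was 2.95, with an exact 95% counting interval of 1.78 to 5.09. The main limma fit did not call it, whereas it passed with only the 4 RPF libraries (limma adjusted p = 0.0281), in edgeR with TMM (log2 fold change 1.53, adjusted p = 0.00725) and in limma voom (1.49, adjusted p = 0.0136), and DESeq2 gave no adjusted p for it.

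Input values of Timm9 were 14.1 and 5.09 for EV and 11.2 and 12.0 for OE. Here the EV pair spanned the OE pair, and the mRNA log2 fold change of 0.39 (limma adjusted p = 0.759) became -0.26 without the second EV input library.

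Footprints of Timm10 and Timm9 were set side by side per kilobase of coding sequence, a scale that divides reads by coding length. Their ratio was 3.87 and 3.76 in the EV libraries and 1.42 and 2.08 in the OE libraries. The ratio was lower in both OE libraries than in both EV libraries; this pair was chosen after its values were seen, and the difference was not tested. For Timm13 and Timm8b, the other small TIMs measured, the ratio was 2.54 and 2.50 for EV and 2.63 and 1.75 for OE, so that the groups overlapped. Timm13, the most abundant gene of the branch, had input values of 35.9 and 42.0 for EV and 51.4 and 55.9 for OE. Its RPF values were 101.5 and 90.3 for EV and 88.9 and 79.0 for OE. The groups separated in opposite directions, with OE above EV in mRNA (log2 fold change 0.45, limma adjusted p = 0.264) and below it in footprints (-0.19, limma adjusted p = 0.810).

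**Figure D2:**
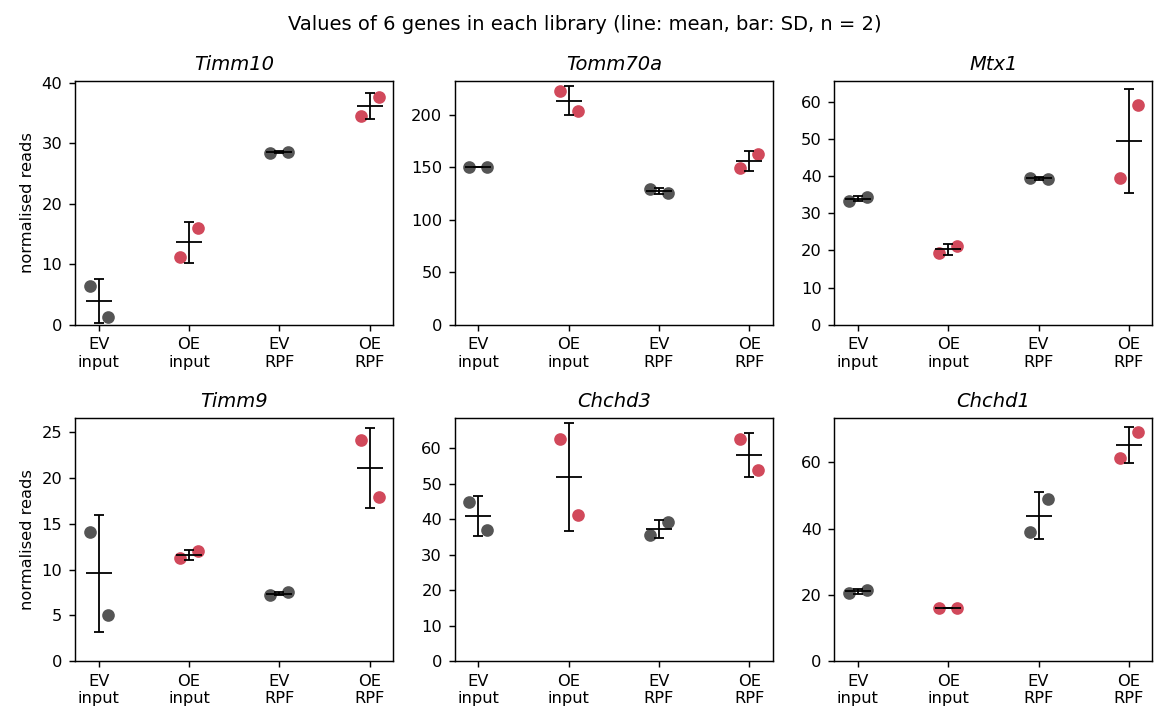
Normalised reads of 6 import genes in each library, with EV in grey and OE in red, on axes that start at 0. Each point is 1 library, the line is the mean and the bar the SD (n = 2). Timm10 and Tomm70a stood higher in OE input, Mtx1 lower in OE input, and Timm9, Chchd3 and Chchd1 higher in OE RPF.

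Of the TIM23 genes, Timm17a and Timm17b are channel subunits, Timm50 receives precursors from TOM, Timm21 links the complex to TOM, Timm44 anchors the import motor, and Grpel1 is the nucleotide exchange factor of the motor's Hsp70. None of these 6 passed the limma test in mRNA or footprints, and 3 lay above 0 in each. Grpel1, the most abundant, had input values of 64.2 and 52.2 for EV and 57.8 and 57.2 for OE. Its RPF values were 77.1 and 95.6 for EV and 82.3 and 88.9 for OE. The OE pair lay within the EV pair in both kinds of library, with log2 fold changes of -0.01 each (SE 0.18). For the paralogs Timm17a and Timm17b the values differed in pattern. Timm17a input values were 16.7 and 16.6 for EV and 28.9 and 22.6 for OE, with OE higher in both libraries, and those of Timm17b were 24.4 and 19.1 for EV and 24.1 and 23.96 for OE. The mRNA log2 fold changes were 0.59 (SE 0.27, limma adjusted p = 0.331) for Timm17a and 0.15 (SE 0.31) for Timm17b, and the difference between them was not tested. Timm21, at 1 to 8 input reads a library, had an mRNA log2 fold change of -1.13 (SE 0.52, limma adjusted p = 0.338).

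The SAM genes are Samm50, the barrel-inserting pore, and the metaxins Mtx1 and Mtx2, which sit on its cytosolic side. None passed the limma test. Samm50, the most abundant, had input values of 83.4 and 79.0 for EV and 80.3 and 110.5 for OE, and RPF values of 94.3 and 113 for EV and 111 and 111 for OE. The groups overlapped in both kinds of library, and the log2 fold changes were 0.21 (SE 0.17) and 0.11 (SE 0.17). Mtx1 (chromosome 3, 89209081 to 89227088, minus strand) stood in input at 33.4 and 34.4 for EV and 19.3 and 21.3 for OE. Both OE libraries were low, with a log2 fold change of -0.71 (SE 0.25, limma adjusted p = 0.170) and a ratio from 53 EV and 28 OE reads of 0.601 (exact 95% counting interval 0.366 to 0.968). Mtx1 footprints were not lower: they were 39.6 and 39.1 for EV and 39.5 and 59.3 for OE. Exons of Thbs3 and of another gene on the opposite strand cover part of the Mtx1 exons, 30.1% of their bases in all, and the strand handling of the counts is not given in the sources used here, so its values are uncertain.

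The processing peptidase that removes leaders in the matrix consists of Pmpca and Pmpcb. Pmpcb, which has the higher mean over all 8 libraries, had input values of 79.6 and 86.6 for EV and 85.1 and 94.5 for OE, and RPF values of 108 and 122 for EV and 110.3 and 128 for OE. Its groups overlapped in both, with log2 fold changes of 0.11 (SE 0.16) and 0.05 (SE 0.16). Pmpca footprints, above those of Pmpcb in both EV libraries, were 129 and 134 for EV and 114 and 105 for OE, so that OE lay below EV, with a log2 fold change of -0.26 (SE 0.16, limma adjusted p = 0.621).

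Chchd4 is the oxidoreductase that puts disulfide bonds into the small TIMs and into proteins with cysteine pairs 9 residues apart. Its own helix pair is of the latter kind, and its coding stretch is given with the cysteine codons in capitals for comparison with the small TIMs above.
Chchd4: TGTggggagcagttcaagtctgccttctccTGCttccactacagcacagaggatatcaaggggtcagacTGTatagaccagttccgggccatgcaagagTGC
Its input values were 8.99 and 10.2 for EV and 3.21 and 7.99 for OE, from 15 EV and 8 OE reads. OE was the lower group, and the log2 fold change of -0.78 (SE 0.44, limma adjusted p = 0.463) did not pass; it was -0.23 without the first OE input library and -1.33 without the second. Its RPF values were 9.89 and 13.6 for EV and 14.3 and 13.5 for OE, which overlapped.

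The other proteins of the CHCHD family are Chchd3 and Chchd6, subunits of the complex that holds cristae junctions (MICOS), Chchd1, a protein of the small subunit of the mitochondrial ribosome, and Chchd5 and Chchd7, small proteins of the intermembrane space. None of the 5 passed the limma test for mRNA or footprints. Chchd3 (chromosome 6, 32790976 to 33060260, minus strand) had RPF values of 35.6 and 39.1 for EV and 62.6 and 53.9 for OE. OE was high in both libraries, with a log2 fold change of 0.62 (SE 0.23, limma adjusted p = 0.255), and a ratio from 106 EV and 174 OE reads of 1.59 (exact 95% counting interval 1.24 to 2.04). The edgeR test with TMM scaling put it just past the threshold (adjusted p = 0.0470), while limma voom (0.0559) and DESeq2 (0.573) did not. Its input values of 44.9 and 36.9 for EV and 62.6 and 41.3 for OE overlapped.

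Chchd1 (chromosome 14, 20703006 to 20704425, plus strand) separated in opposite directions. Its input values were 20.5 and 21.7 for EV and 16.1 and 16.0 for OE, and its RPF values were 38.9 and 48.9 for EV and 61.5 and 69.1 for OE. OE was thus the lower group in mRNA (log2 fold change -0.38, limma adjusted p = 0.552) and the higher in footprints (0.57, limma adjusted p = 0.410). Chchd6, the other MICOS subunit of the family, was lower in OE in both, with RPF values of 12.5 and 15.8 for EV and 8.23 and 8.98 for OE. Its log2 fold changes of -0.53 in mRNA and -0.65 in footprints did not pass (limma adjusted p = 0.610 and 0.636).

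Tomm34 and Timmdc1 carry the names of this machinery but are known for other tasks, Tomm34 as a cytosolic cochaperone and Timmdc1 as an assembly factor of respiratory complex I. Tomm34 had input values of 21.8 and 22.9 for EV and 25.7 and 27.96 for OE, and RPF values of 42.2 and 40.7 for EV and 36.8 and 48.5 for OE. OE was the higher group in input and spanned EV in footprints, and neither change passed (limma log2 fold changes 0.25 and 0.03). Timmdc1 had log2 fold changes of -0.38 and -0.08.

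Across footprints as a whole, 0 of the 33 import genes passed an adjusted p of 0.05 in the main limma fit, against 0.956% of all genes. At an unadjusted p under 0.05 there were 4 (Chchd1, Chchd3, Timm9 and Tomm70a, 12.1%), against 10.2% of all genes. With edgeR under either scaling 2 passed (Chchd3 and Timm9, with 5 at an unadjusted p under 0.05), with limma voom 1 (Timm9, 7 unadjusted) and with DESeq2 0 (2 unadjusted). Over all 9307 genes, edgeR called 301 with TMM and 304 with RLE, limma voom 319 and DESeq2 25. The median footprint change was 0.05, against -0.00 over all genes, and 21 of 33 lay above 0, against 49.8% of all genes. The median was 0.031 and 0.15 without the first and the second EV RPF library, and 0.20 and 0.098 without the first and the second OE RPF library. The groups did not overlap for 13 import genes (39.4%), against 44.1% of all genes. Of the 33 import genes, OE was wholly above EV in 10, against 21.9% of all genes. It was wholly below in 3 of the 33 (Chchd6, Pmpca and Timm13), against 22.2% of all genes. The import genes took 0.328% ± 0.0176 of EV and 0.341% ± 0.0148 of OE RPF reads (SD, n = 2 each, exact two-sided permutation p = 0.667).

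Translational efficiency (TE), the footprint change minus the mRNA change, was tested as an interaction in the same limma fit. No import gene passed (0 of 33, against 0% of all genes), and 5 had an unadjusted p under 0.05 (15.2%, against 5.46% of all genes). With edgeR, DESeq2 and limma voom 0 passed as well, with 5, 0 and 6 unadjusted. Over all genes, edgeR called 1 under either scaling, and DESeq2 and limma voom called 0. Among the 5 of the main limma fit, TE was higher in OE for Mtx1 (log2 fold change 1.01, SE 0.36), Chchd1 (0.94, SE 0.36) and Timm21 (1.62, SE 0.74), and lower for Timm10 (-1.48, SE 0.60) and Timm13 (-0.64, SE 0.26), each with a limma adjusted p of 0.899. The value of Timm10 was -0.63 without the second EV input library and -2.33 without the first. The authors' deposited table gave 0 of the 33 an unadjusted p under 0.05, against 0.752% of all genes, and its lowest were Mtx1 (log2 fold change 1.04, p = 0.0639) and Timm10 (-1.50, p = 0.0881). Its log2 fold changes of Mtx1 (1.04) and Chchd1 (0.97) equalled those of the DESeq2 run on the same reads. The deposited and DESeq2 results are thus not separate evidence. The median TE change was -0.06, against -0.01 over all genes, and 15 of 33 lay above 0, against 49.3% of all genes. It had no steady sign: it was 0.015 without the second OE input library, 0.039 without the second EV RPF library, -0.14 without the first OE input library and -0.18 without the first EV RPF library.

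Footprint density in EV cells, in normalised RPF reads per kilobase of coding sequence, ranked the import genes from Tomm7 down to Tomm40l, whose level rests on 1 and 3 EV reads. Tomm7 stood first at 531 ± 3.49, then Tomm6 at 434 ± 29.6 and Timm13 at 333 ± 27.5 (SD, n = 2 here and below). The libraries of these 3 did not overlap with their neighbours in the order. Coding sequences of these 3 are short, at 168, 225 and 288 bases, against a median of 654 over the import genes. The part of coding length in the order was not tested. Grpel1 (132 ± 19.97) and Timm8b (132 ± 9.33) could not be separated, and of the 32 pairs of neighbours 22 overlapped and 10 did not. The lowest were Timm21 at 10.2 ± 2.98 and Tomm40l at 1.57 ± 1.22. Within complexes the genes stood at unlike densities: in the TOM complex Tomm40 was at 64.1 ± 0.407 and Tomm22 at 82.3 ± 7.71, and in the TIM23 complex Timm17a was at 68.4 ± 8.04 and Timm44 at 28.3 ± 2.29. Tomm40, Tomm22 and Timm17a share part of their coding subsequences with other genes (80.0%, 54.2% and 54.0% unique). Their densities are uncertain to that extent. Timm9 stood at 27.4 ± 0.723 in EV and 78.0 ± 16.2 in OE.

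**Figure D3:**
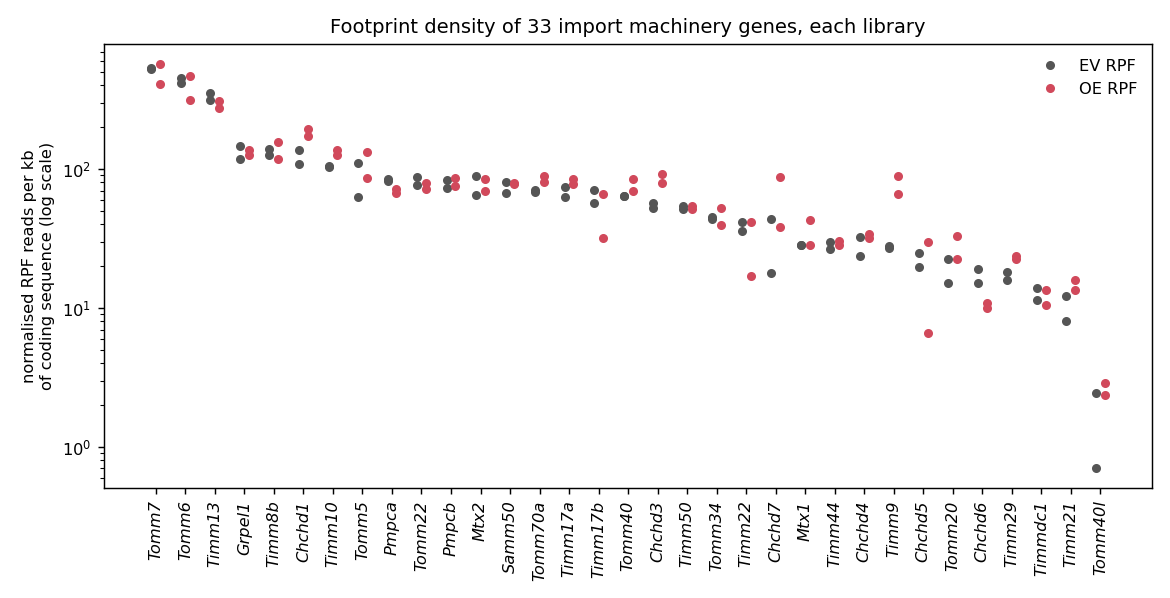
Normalised RPF reads per kilobase of coding sequence (log axis) for the 33 import genes, ordered by their EV mean, with each library as a point (EV grey, OE red, 2 libraries each). Tomm7, Tomm6 and Timm13 stood highest and Tomm40l lowest, and the OE points of Timm9 lay above its EV points.

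Footprints were then set against mRNA within the EV cells, where both kinds of library are scaled to their own typical gene. In this comparison 12 import genes (36.4%) were higher in footprints at a limma adjusted p under 0.05, against 18.5% of all genes, and 2 (6.06%) were lower, against 19.1%. The median log2 difference was 0.40, against 0.02 over all genes. The higher genes were Timm10 (2.84), Tomm7 (1.60), Tomm6 (1.31), Timm13 (1.28), Timm17a (1.04), Chchd1 (1.01), Tomm34 (0.86), Timm50 (0.83), Pmpca (0.75), Mtx2 (0.57), Grpel1 (0.56) and Pmpcb (0.46). Among them are the small TOM subunits Tomm6 and Tomm7 but not Tomm5 (0.82, adjusted p = 0.129), the small TIMs Timm10 and Timm13 but not Timm8b (0.67, adjusted p = 0.0583) or Timm9 (-0.19, adjusted p = 0.766), and both peptidase subunits. The lower ones were Tomm20 (-2.66, limma adjusted p = 3.79e-08) and Tomm40l (-2.62, limma adjusted p = 0.000151). The value of Timm10 rests on 5 and 1 EV input reads, which also enter its mRNA and TE changes. Mean footprints over mean input of Timm10 were 7.41 in EV and 2.66 in OE.

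Coding length and transcript length both moved with this measure. Over 9299 genes with a gene model, coding length and the log2 difference had a Spearman rho of -0.40, and over the 33 import genes one of -0.29. For transcript length rho was -0.36 and -0.32. All points come from the same 4 libraries, and no test was made. The median import gene has 654 coding bases, against 1443 over all genes. Of genes with under 500 coding bases, 5 of 13 import genes (38.5%) and 40.9% of 727 genes overall were higher in footprints. From 500 to 1000 bases the shares were 33.3% of 12 and 28.7% of 2034. From 1000 to 1500 bases they were 33.3% of 6 and 18.3% of 2091, and above that 50% of 2 and 10.4% of 4447. Below 1000 bases the import genes thus stood near other genes of like length, and above it they were few.

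For the receptor Tomm20 (chromosome 8, 126930667 to 126945844, minus strand) footprints were 6.59 and 9.79 for EV and 9.88 and 14.4 for OE, while input values were 61.6 and 50.9 for EV and 72.3 and 61.2 for OE. Both footprint groups were far below both input groups. The coding sequence of Tomm20 is 438 bases, 8.94% of the transcript, against a median of 30.0% over the import genes. Between this coding share and the log2 difference of footprints over mRNA in EV cells, Spearman rho was -0.13 over 9299 genes. Over the 33 import genes it was -0.01. Per kilobase, of coding sequence for footprints and of transcript for input, EV values were 18.7 ± 5.16 and 11.5 ± 1.54 (SD, n = 2). Only 8.27% of the 28-base subsequences in its coding sequence occur in no other annotated gene, against 92.2% over its whole transcript, and most of the sharers are processed pseudogenes, of which Gm14494 shares 352 coding subsequences. A shared stretch of 28 bases (coding bases 139 to 166, counted from the start codon, also found in 10 other genes) and the longest stretch made of unique subsequences (coding bases 318 to 372) show this at the level of the letters.
Tomm20 shared: cttgctaaggagagagctgggctttcca
Tomm20 unique: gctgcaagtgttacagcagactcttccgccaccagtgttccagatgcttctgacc
How reads with several matches were counted is not given in the sources used here, so the level of Tomm20 footprints is uncertain. Over all genes with 0 to 10% unique coding subsequences, 49.5% of 212 were lower in footprints and 14.6% higher. Lower shares were 22.4% of 499 genes with 10 to 50%, 16.4% of 1168 with 50 to 90%, and 18.5% of 7420 with 90 to 100%. Between the unique share and the log2 difference of footprints over mRNA, Spearman rho was 0.04 over all genes and 0.11 over the import genes. The parts of shared sequence and of the small coding share in the result for Tomm20 were not tested.

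Tomm40l had 52% unique coding subsequences, and exons of Nr1i3 on the opposite strand cover 64.3% of its exon bases. Tomm6 shares all its coding subsequences with other genes (0% unique), and 84.2% of its exon bases are overlapped. The overlapping genes are Gm21981 on the same strand and Tomm6os and Usp49 on the opposite strand. Subsequences of Tomm6 occur in 3 other genes, so its 0% can reflect overlap at its own locus. Values of Tomm40l and Tomm6 are therefore uncertain. Tomm7 (61.0% unique), Timm17a (54.0%), Tomm22 (54.2%) and Tomm5 (31.8%) share part of their coding subsequences as well, and the levels of their footprints carry the same limit. Of the 12 genes higher in footprints, Tomm6, Tomm7 and Timm17a have under 100% unique coding subsequences. Input reads can come from the whole transcript, where Pmpca has 72.7% unique subsequences and Grpel1 89.0%. Exons of Inpp5e and Tada2b on the opposite strand cover 20.4% and 11.6% of their exon bases. Their input values carry the limit on strand handling too.

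**Figure D4:**
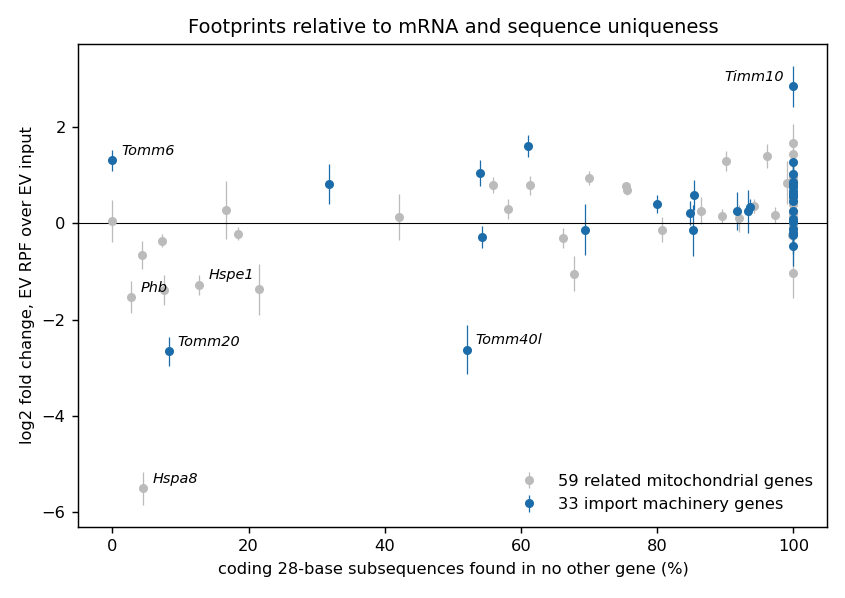
Log2 fold change of footprints over mRNA in EV cells (vertical axis) against the share of coding 28-base subsequences found in no other gene (horizontal axis, percent), for the 33 import genes (blue) and 59 related mitochondrial genes (grey). Points are limma estimates from 2 RPF and 2 input libraries, with standard errors as bars. Tomm20 at -2.66, Phb at -1.53 and Hspa8 at -5.50 combine few unique subsequences with low footprints. Tomm6 at 1.31 has no unique subsequence and high footprints, but genes at its own locus overlap 84.2% of its exon bases.

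The promoters of the 2 genes called in mRNA are shown because their mRNAs rose, and because they hold motifs often found at genes of mitochondrial proteins. Each sequence runs 5′ to 3′ along the gene's strand, from 250 bases before to 50 after the RefSeq start (RefSeq, GRCm38.p6), at chr2:84826771-84827070 for Timm10 and chr16:57121464-57121763 for Tomm70a, both on the plus strand. Capitals mark the letters CCGGAAG on either strand, the core bound by ETS factors such as GABPA, and in Timm10 also CACGTG, an E-box.
Timm10: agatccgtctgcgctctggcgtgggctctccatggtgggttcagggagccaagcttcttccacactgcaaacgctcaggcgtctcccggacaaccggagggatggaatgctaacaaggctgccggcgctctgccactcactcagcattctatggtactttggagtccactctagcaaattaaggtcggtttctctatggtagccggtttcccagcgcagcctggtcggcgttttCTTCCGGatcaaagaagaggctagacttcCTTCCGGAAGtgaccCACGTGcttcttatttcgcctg
Tomm70a: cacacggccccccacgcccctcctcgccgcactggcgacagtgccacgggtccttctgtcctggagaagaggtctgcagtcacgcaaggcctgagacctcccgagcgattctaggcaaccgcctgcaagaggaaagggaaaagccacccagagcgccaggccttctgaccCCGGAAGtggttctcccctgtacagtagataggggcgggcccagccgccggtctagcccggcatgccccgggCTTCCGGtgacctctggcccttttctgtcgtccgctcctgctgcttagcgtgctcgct
The ETS letters begin at bases 235, 264 and 267 of the Timm10 window, the last 2 overlapping on opposite strands, and at bases 171 and 243 of the Tomm70a window. The Timm10 E-box begins at base 279.

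Promoters were found for 29 of the 33 import genes and for 7416 genes of the table, with a gene's RefSeq alternatives counted as 1 gene. The ETS letters occurred in 14 import genes (48.3%), against 22.9% of the table's genes and 8.91% of all 32544 promoters. The E-box CACGTG occurred in 5 (17.2%), against 12.6% of the table's genes and 7.17% of all promoters. The NRF1 letters (GCGC, any base, then TGCGC) occurred in 3 (10.3%, against 13.3% and 4.63%), the CCAAT box in 11 (37.9%, against 43.3% and 37.4%), and the letters TTGCATCA, bound by ATF4, in 0 (against 0.674% and 0.867%). All motifs were searched on both strands, and a match describes letters in this window only. Of the other import genes at an unadjusted limma p under 0.05 in mRNA, Mtx1, lower in OE, held the ETS letters. Timm13, Timm17a and Tomm40, higher in OE, did not, and no promoter was found for Timm21. Whether the letters bear on the mRNA changes was not tested.

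Related mitochondrial genes outside the naming rule were read from the same fit. They comprise 4 lists chosen by role: import partners, MICOS and inner membrane shape, cysteine-rich and copper proteins of the intermembrane space, and matrix chaperones and proteases. Of 67 listed genes 59 were measured, and 0 passed the limma test in mRNA, footprints or TE, with 10 (16.9%), 4 (6.78%) and 8 (13.6%) at an unadjusted p under 0.05, against 13.4%, 10.2% and 5.46% of all genes. With edgeR under TMM scaling and with DESeq2 0 passed in each (DESeq2 gave no adjusted p for 17 of them in mRNA and 29 in footprints), and with edgeR under RLE scaling and limma voom 1 passed, Hspd1 in footprints. Hspd1, the matrix chaperonin, had log2 fold changes of 0.48 in mRNA (SE 0.13, limma adjusted p = 0.0678) and 0.43 in footprints (SE 0.13, limma adjusted p = 0.155). Hspa9, the Hsp70 of the import motor, had 0.33 in mRNA (limma adjusted p = 0.0781). Oxa1l, which inserts proteins into the inner membrane from the matrix, had -1.05 (limma adjusted p = 0.0680) and Uqcrh, a cysteine-rich subunit of respiratory complex III, -0.71 (limma adjusted p = 0.0678). These 4 were named for their small p after their values were seen. Unique coding subsequences were 18.4% for Hspd1, 75.5% for Hspa9, 61.3% for Uqcrh and 100% for Oxa1l. Values of Hspd1, Hspa9 and Uqcrh are uncertain to that extent.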

How the data were processed

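Ribosome profiling and input libraries of 4 groups (2 libraries each) were analysed. The authors deposited 1 table of signal per gene, which holds normalised reads, together with their own log2 fold change of TE and its p-value. Reads were aligned with Bowtie to mm10, per the submitters' processing notes. Its version, the counter, the strand setting and the annotation release: not given in the sources used here. Dividing each value by the smallest of its library gave whole numbers for 100% of values (tolerance 1e-06), taken here as the reads. The table has 9309 lines, of which 2 are blank, and 9306 identifiers matched GENCODE mouse release 21, the source of symbols, coordinates and sequence; promoters are RefSeq's.

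Log2(value + 1) of all 8 libraries entered a linear model in limma 3.58.1 (R 4.3.3) with a mean-variance trend and a minimum mean of 1, which keeps every gene; the pseudocount understates changes of low genes. The spread of each gene was estimated from all 8 libraries together, so its SE is the same for mRNA and RPF, although read numbers differ. Calls in either contrast depend on this shared spread. The contrasts were mRNA, RPF, TE (their interaction) and EV RPF against EV input, two-sided, with Benjamini-Hochberg adjustment over 9307 genes and a threshold of 0.05. Alternatives used other pseudocounts, filters and libraries, and edgeR 4.0.16, DESeq2 1.42.0 and limma voom on the recovered reads. Exact intervals cover counting error only, since reads are not independent molecules. RPF per kilobase used coding length of the annotated transcript.

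The members and lists were chosen with earlier results of these data known. Named in full were genes past the threshold for mRNA, RPF or TE, the 3 with the smallest p in each of these, and the highest gene of each role. Other genes named are neighbours within a role, or were chosen after their values were seen. Ptcd2 was taken off a role list after the data were seen, because import is not its role.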

Additional observations from a re-analysis of the deposited data

How the results depend on the processing

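Calls among the 33 import genes were few and moved with the test. The 2 mRNA calls became 0 with only the 4 libraries compared, edgeR TMM, edgeR RLE, DESeq2 and limma voom, and 0 to 2 when a library was left out. With the replicate block there was 1 mRNA call, since Tomm70a missed the threshold (limma adjusted p = 0.0526), and the block changed no other call. Same-numbered libraries shared only a number in the labels, and the correlations of their deviations were -0.0543 to 0.0314 over 7164 genes. The 0 RPF calls became 1 with only the 4 libraries compared, 2 with edgeR TMM, 2 with edgeR RLE and 1 with limma voom. The 14 calls of footprints over mRNA in EV became 9 with DESeq2 and 9 to 15 when a library was left out, and TE calls were 0 in every setting. DESeq2 gave no adjusted p for 10 import genes in mRNA and 15 in RPF.

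Over all genes, the 140 mRNA calls became 47 with only the 4 libraries, 57 with edgeR TMM, 60 with edgeR RLE, 49 with limma voom, 15 with DESeq2 and 50 to 156 when a library was left out. The 89 RPF calls became 174, 301, 304, 319, 25 and 16 to 100.

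Near 0, directions turned. The RPF log2 fold change of Tomm34 was -0.0058 with edgeR TMM and -0.023 with limma voom. When a library was left out it ranged from -0.17 to 0.22, that of Grpel1 from -0.16 to 0.15 (mRNA -0.16 to 0.14, TE -0.15 to 0.16), that of Samm50 from -0.023 to 0.23 (mRNA -0.016 to 0.44, TE -0.33 to 0.12), and that of Pmpcb from -0.058 to 0.15 (TE -0.17 to 0.040). The mRNA log2 fold change of Timm9 ranged from -0.26 to 1.05. The cause was not tested. A median of 15 to 19 input reads per import gene limits the precision of the mRNA and TE comparisons.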
